A study of Mus musculus with 14 samples.

Results

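LSK cells are bone marrow cells without lineage markers that carry Sca1 and Kit on the surface, the gate in which hematopoietic stem cells (HSCs) and multipotent progenitors lie. Expression was compared between LSK cells sorted at GFP level 2 (GFP2, 3 arrays) and LSK cells sorted at GFP level 1 (GFP1, 3 arrays), which are 6 of the 14 arrays of the study. The arrays were assigned by their sample titles, and every gene was read through its brightest probe set, which gave 18194 genes. All animals were hCD34 x H2BGFP double transgenic mice (huCD34-tTA with Tet-O-H2B-GFP) on a C57BL/6 background, backcrossed for at least 10 generations. All of them drank doxycycline at 1 mg/ml for a chase of 12 weeks that began when the mice were 6 to 8 weeks old, so that no group was free of the transgenes or of the drug. A human CD34 promoter drove the label, and the comparison therefore covers cells in which that promoter had been active. The ranks run from 0 (most diluted) to 4 (most retained), and neighbouring ranks lie about 1 to 2 divisions apart, so GFP2 cells had divided less than GFP1 cells during the chase. The labels call the arrays biological replicates but tie none of them to an animal, and the p-values below measure the spread between these sorted samples, which may be technical.

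Histone H2B fused to GFP is built into chromatin, and once doxycycline stops its synthesis each division shares the remaining label between the daughter cells. HSCs divide rarely and keep label, whereas multipotent progenitors divide often and begin to express genes of the lymphoid and myeloid lineages. The LSK gate thus holds cells along a path from dormant stem cells to primed progenitors, and the step from GFP1 to GFP2 lies in the middle of the label scale.

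The sort label was read against its markers first. Ptprc (CD45), Cd34, Flt3 and Kit lay between 8.05 and 12.66 on the log2 scale in the 6 arrays, above the median of the table of 7.03. Ly6a, which encodes Sca1, was not read, because no probe set named it alone. Of markers of lineage cells, Itgam of myeloid cells (5.13 to 5.60) lay below that median in every array, Cd3e of T cells (7.10 to 7.75) and Siglech of dendritic cells (7.34 to 7.91) lay near it, and Ighm of B cells (11.75 to 14.64) lay far above it. Of all 18194 genes, 11833 reached the median in a group. So did 17 of 19 neutrophil, monocyte and macrophage genes and 11 of 12 dendritic cell genes. It held for 9 of 13 T and NK cell genes, 7 of 12 B and plasma cell genes and 4 of 7 erythroblast genes. Of mast cell and basophil genes 5 of 14 did so, and of endothelial and stromal genes 5 of 18. Cdh5 of endothelium lay between 5.60 and 6.01. Ms4a2, the beta chain of the IgE receptor of mast cells and basophils, reached 10.31 in GFP1 replicate 1 and 6.43 in GFP2 replicate 3. Xist lay between 12.67 and 13.43 and the Y-linked Eif2s3y between 7.35 and 9.77, the highest Eif2s3y values being those of both arrays numbered 3 (9.77 in GFP1 and 9.74 in GFP2).

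The 6 arrays had medians from 6.96 to 7.05, with interquartile ranges of 2.32 to 2.73. GFP1 replicate 2 stood apart: it correlated with the other 5 arrays at r between 0.939 and 0.959 over all genes, while those 5 correlated with each other at r between 0.963 and 0.990. GFP1 replicate 3 was closest to an array of the other group, GFP2 replicate 3, at r = 0.990. The 3 prime minus 5 prime difference of Actb, a sign of RNA degradation or short amplification, was 2.99, 4.18 and 4.72 in GFP1 and 3.63, 3.57 and 3.93 in GFP2, so the GFP1 arrays spread more widely. Of the 74 genes described below that had an unadjusted p under 0.05 in limma, 33 kept it with each of the 6 arrays left out in turn. It was lost by 29 without GFP1 replicate 2 and by 34 without GFP2 replicate 3.

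The comparison asked which genes differ between LSK cells 1 rank apart in the middle of the dilution scale. No gene passed: 0 of 18194 genes (0.00%) reached an adjusted p under 0.05 in limma with Benjamini-Hochberg adjustment, and the smallest adjusted p was 1.00 to 2 decimals. Without GFP1 replicate 3 the count was 3, with Mmrn1 higher in GFP2 and Iglv1 and a kappa variable segment lower. Without adjustment, 493 genes (2.71%) had a limma p under 0.05, 292 with the higher mean in GFP2 (1.60%) and 201 with the lower (1.10%). That is below the share that a p under 0.05 marks when no gene differs, which is the threshold itself. These unadjusted values are therefore used below only to sort and describe genes. With cyclic loess scaling the same count was split into 269 higher and 281 lower.

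The size of the differences was small beside their errors. The median difference over all genes was -0.02 on the log2 scale (quartiles -0.15 and 0.15), and the median standard error was 0.25. In 151 genes (0.830%) the group means differed by more than 1. The 95% confidence interval of the difference lay wholly within 1 of 0 for 14182 genes (77.9%), and for 8222 of the 11833 genes at or above the table median (69.5%). Among the 4 steps between neighbouring levels the median size of the difference was 0.28 from GFP0 to GFP1, 0.15 from GFP1 to GFP2, 0.13 from GFP2 to GFP3 and 0.21 from GFP3 to GFP4. At an unadjusted p under 0.05 the other 3 steps counted 1969 genes (10.8%), 247 genes (1.36%) and 716 genes (3.94%), and limma called 0 genes at each after adjustment (0.00%).

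GFP1 replicate 2 set many of the unadjusted counts. Of the 292 genes with the higher mean in GFP2, that array held the lowest of the 3 GFP1 values in 237 (81.2%), against 28.5% of all genes. Ptprc, the CD45 phosphatase of all blood cells, shows the pattern: it read 11.66, 9.90 and 12.11 in GFP1 and 11.96, 12.31 and 12.66 in GFP2. The single low value makes up most of its difference of 1.09 ± 0.47 (SE), which was 0.42 without that array. Without GFP1 replicate 2 the unadjusted counts were 71 higher and 74 lower (0.797% of the genes in all).

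HSC markers had the highest median difference of the 38 gene lists described here. Mllt3, a chromatin reader that maintains HSCs, read 7.56, 7.73 and 8.64 in GFP1 and 9.17, 9.27 and 9.52 in GFP2. The groups did not overlap, and the difference was 1.34 ± 0.30 (SE, unadjusted p = 0.000673 in limma). It was 1.22 without GFP1 replicate 2. Mecom, which encodes the HSC transcription factor Evi1, read 7.79, 8.09 and 9.72 in GFP1 and 9.38, 10.41 and 10.58 in GFP2. GFP1 replicate 3 exceeded the lowest GFP2 array here, and the difference was 1.59 ± 0.46 (SE). Under the alternative settings its lowest value was 0.58, against 1.22 with single arrays left out. Procr, the endothelial protein C receptor used to sort HSCs, read 8.96, 7.41 and 9.73 in GFP1 and 10.02, 9.65 and 10.90 in GFP2, again with GFP1 replicate 3 above the lowest GFP2 array, and with a difference of 1.49 ± 0.47 (SE) that was 0.84 without GFP1 replicate 2.

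Slamf1 (CD150), a surface receptor of HSCs, read 6.98, 7.35 and 7.44 in GFP1 and 7.56, 8.01 and 8.08 in GFP2. The arrays did not overlap, and the difference was 0.63 ± 0.18 (SE). Under the alternative settings its lowest value was 0.09, against 0.49 with single arrays left out. Cd48, which HSCs lack and most progenitors carry, read 11.01, 9.59 and 9.75 in GFP1 and 9.68, 9.60 and 9.23 in GFP2, so that GFP1 replicate 1 alone stood high. Its difference was -0.61 ± 0.62 (SE). Sult1a1, a sulfotransferase, and Ndn, an imprinted regulator of growth, had differences of 0.89 ± 0.32 and 0.91 ± 0.30 (SE), and in both genes the 3 GFP2 arrays lay above the 3 GFP1 arrays. Sult1a1 differed by 0.52 without GFP2 replicate 3 and Ndn by 0.59 without GFP1 replicate 1, in both cases not at an unadjusted p under 0.05. Hlf, a transcription factor of HSCs, differed by 0.35 ± 0.40 (SE), and Vwf, the von Willebrand factor of platelet-biased HSCs, by 0.26 ± 0.72 (SE).

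Over the list of HSC markers, 24 of 26 measured genes had the higher mean in GFP2, against 46.5% of all genes. The median difference of the list was 0.56, beside -0.02 over all genes. At an unadjusted p under 0.05 in limma 11 members were higher (1.60% of all genes) and 0 lower (1.10%), and none passed after adjustment. Besides the genes above these were Tek (0.97) and Trpc6 (1.10), a receptor tyrosine kinase and a cation channel, Nupr1 (0.98), a stress-response protein, and Pdzk1ip1 (0.75) and Cd9 (0.68), both membrane proteins. Without GFP1 replicate 2 Cd9 differed by 0.29, and Cd9, Tek and Nupr1 had no unadjusted p under 0.05. Nupr1 differed by 0.21 at its lowest under the alternative settings, against 0.67 with single arrays left out. In 5 members the arrays of the groups did not overlap, all with GFP2 above (2.85% of all genes did so, and 6.47% did not overlap in either direction). Without GFP1 replicate 2 the median was 0.55, with 8 members higher and 0 lower at an unadjusted p under 0.05, beside 0.797% of all genes. When each of the 6 arrays was left out in turn the count lay between 5, without GFP2 replicate 3, and 13, and the median between 0.37 and 0.81. The list was chosen with results of these arrays known, and its counts are a description.

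The mean over the 26 HSC markers was 8.13, 8.27 and 8.65 in GFP1 and 8.60, 8.95 and 9.34 in GFP2. The ranges touched, because GFP1 replicate 3 lay just above GFP2 replicate 1. At the other steps the median of the list was 0.31 from GFP0 to GFP1 and 0.66 from GFP2 to GFP3, which share arrays with this step, and -0.08 from GFP3 to GFP4, which shares none.

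**Figure D1:**
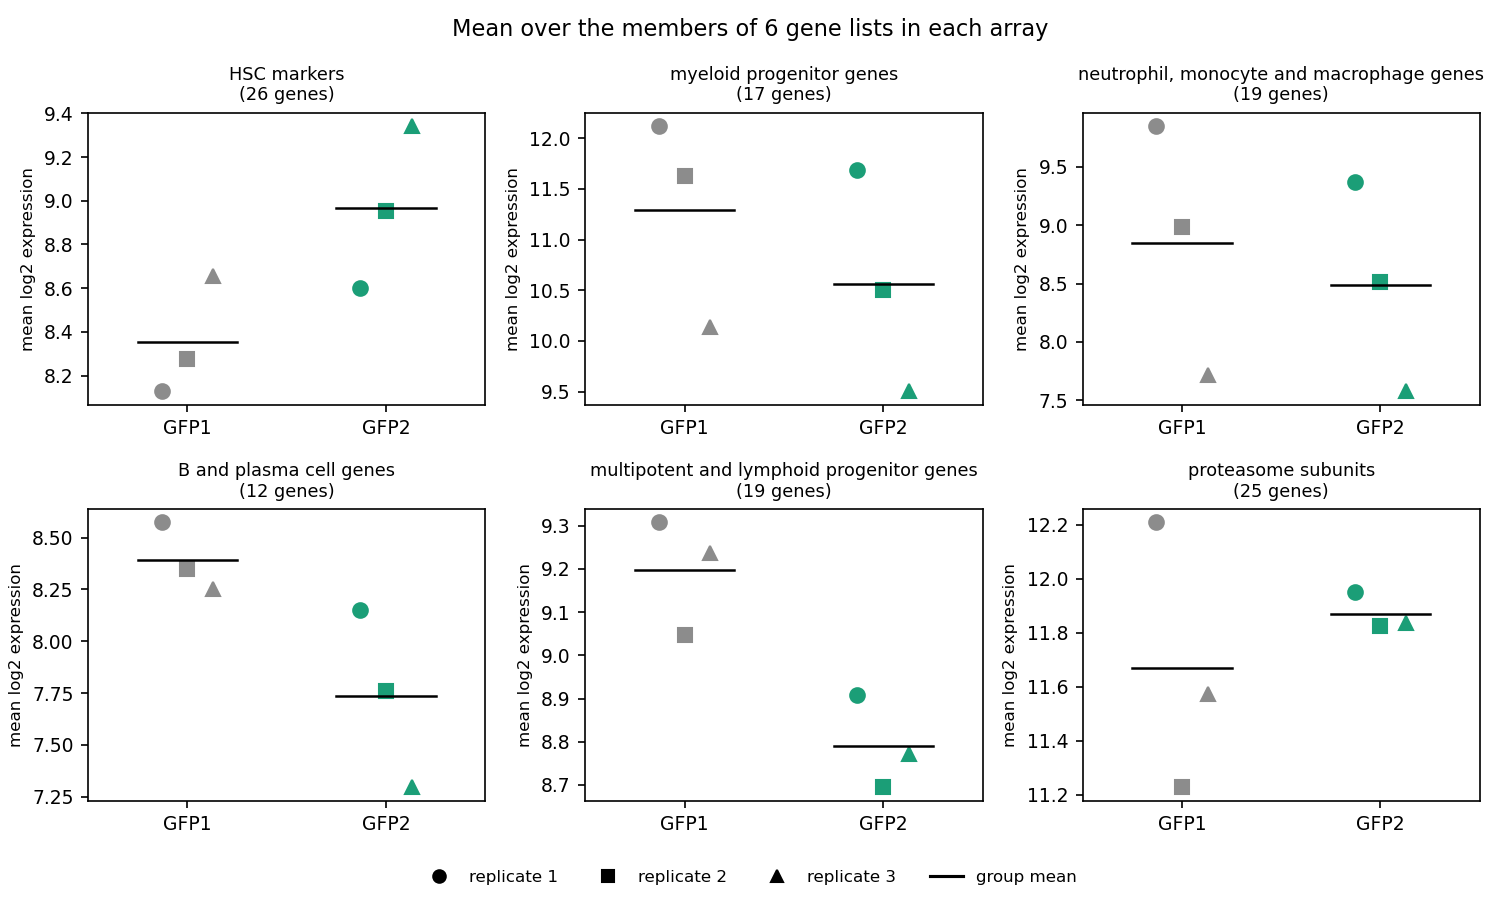
Mean log2 expression over the members of 6 gene lists in each GFP1 (grey) and GFP2 (green) array, with symbols for the replicate number and a line for the group mean; each panel has its own vertical scale. Multipotent and lymphoid progenitor genes lay between 9.05 and 9.31 in GFP1 and between 8.69 and 8.91 in GFP2, while in the myeloid panels the arrays numbered 3 were lowest in both groups, and proteasome subunits spread from 11.23 to 12.21 within GFP1.

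Of 22 stem cell transcription factors, 17 had the higher mean in GFP2 (46.5% of all genes), with a median of 0.29. At an unadjusted p under 0.05 there were 2, Mecom and Mycn, both higher (1.60% of all genes). Mycn, a Myc family factor expressed in HSCs, read 8.24, 7.50 and 8.78 in GFP1 and 8.88, 9.77 and 9.68 in GFP2. All 3 GFP2 arrays were above, the nearest by 0.10, with a difference of 1.27 ± 0.34 (SE). Under the alternative settings its lowest value was 0.40, against 0.93 with single arrays left out. Meis1 and Gata2 differed by 0.49 and 0.31 and did not reach an unadjusted p under 0.05. Kit, the receptor of stem cell factor, had a difference of 0.81 ± 0.37 (SE), 0.54 without GFP1 replicate 2, and Jam2, an adhesion molecule, one of 1.11 ± 0.43 (SE). Neither had an unadjusted p under 0.05 without that array. Under the alternative settings the lowest value of Jam2 was 0.35, against 0.87 with single arrays left out.

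Side population efflux and aldehyde detoxification are classical traits of HSCs, and 4 of 20 drug efflux and detoxification genes had an unadjusted p under 0.05, all with the higher mean in GFP2 (1.60% of all genes). Aldh1a1, a retinaldehyde dehydrogenase, read 8.76, 8.80 and 9.66 in GFP1 and 10.02, 10.68 and 10.70 in GFP2. The groups were apart, with a difference of 1.39 ± 0.40 (SE). Abcg2, the transporter that extrudes Hoechst dye, read 9.71, 8.17 and 10.20 in GFP1 and 10.36, 10.78 and 11.06 in GFP2. Its arrays did not overlap either, but its difference of 1.37 ± 0.44 (SE) was 0.78 without the low GFP1 replicate 2. Sult1a1 and Gstt1, a glutathione transferase (0.75 ± 0.29, SE), were the other members. The list median was 0.22, and with single arrays left out the count lay between 2 higher, without GFP2 replicate 3, and 5 higher. It was 5 higher and 0 lower without GFP1 replicate 2, and 5 higher and 2 lower without GFP1 replicate 3.

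Of 22 imprinted genes 10 had the higher mean in GFP2, with a median of -0.08, and 3 members had an unadjusted p under 0.05, all with the higher mean in GFP2 (1.60% of all genes). The count was 1 without GFP1 replicate 1 and 2 without GFP2 replicate 3. Grb10, an adaptor that dampens insulin and growth factor signals, read 7.63, 7.73 and 7.66 in GFP1 and 8.43, 8.73 and 8.85 in GFP2. The 3 GFP1 values lay within 0.10 of each other and far below GFP2, for a difference of 1.00 ± 0.21 (SE, unadjusted p = 0.000361 in limma). It was 1.03 without GFP1 replicate 2. Other probe sets of Grb10 gave differences from -0.08 upwards, so that the value belongs to the brightest one. Cdkn1c (p57), a cyclin-dependent kinase inhibitor of quiescent HSCs, read 7.73, 7.93 and 8.00 in GFP1 and 8.81, 8.56 and 8.97 in GFP2, again without overlap (0.89 ± 0.34, SE). Ndn was the third, and Meg3, a maternally expressed noncoding RNA, differed by 0.63 ± 0.45 (SE).

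Gimap proteins are GTPases that keep lymphocytes and stem cells alive. Gimap8 read 7.86, 8.12 and 9.16 in GFP1 and 9.50, 9.73 and 10.26 in GFP2, and the groups were apart (1.45 ± 0.37, SE). Gimap1 differed by 0.59 ± 0.25 (SE). It had no unadjusted p under 0.05 when GFP1 replicate 1, GFP1 replicate 2 or GFP2 replicate 3 was left out. Of the 8 measured members 5 had the higher mean in GFP2 (46.5% of all genes), with a list median of 0.24. Gimap4 lay the other way at -0.76 ± 0.61 (SE). The arrays were apart with GFP2 above in 1 member, Gimap8 (2.85% of all genes), and with GFP2 below in 1 member (3.63%).

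The naming rule took the 12 largest differences each way among genes with an unadjusted p under 0.01, arrays that did not overlap and a group mean at or above the table median. Selection by size makes these values larger than repeats would, and none passed after adjustment. Mmrn1, multimerin of platelets and endothelium, read 7.87, 8.44 and 9.59 in GFP1 and 10.42, 10.45 and 10.63 in GFP2. GFP1 was spread out and GFP2 was tight, for a difference of 1.87 ± 0.38 (SE, unadjusted p = 0.000265 in limma, the smallest of all genes). Pgap4, an enzyme of GPI anchor side chains, read 5.74, 6.23 and 7.25 in GFP1 and 7.92, 8.08 and 8.83 in GFP2 (1.87 ± 0.42, SE). Ghr, the growth hormone receptor, differed by 1.43 ± 0.38 (SE). Under the alternative settings the lowest values were 0.99 for Mmrn1 and 0.57 for Ghr, against 1.49 and 1.11 with single arrays left out.

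**Figure D2:**
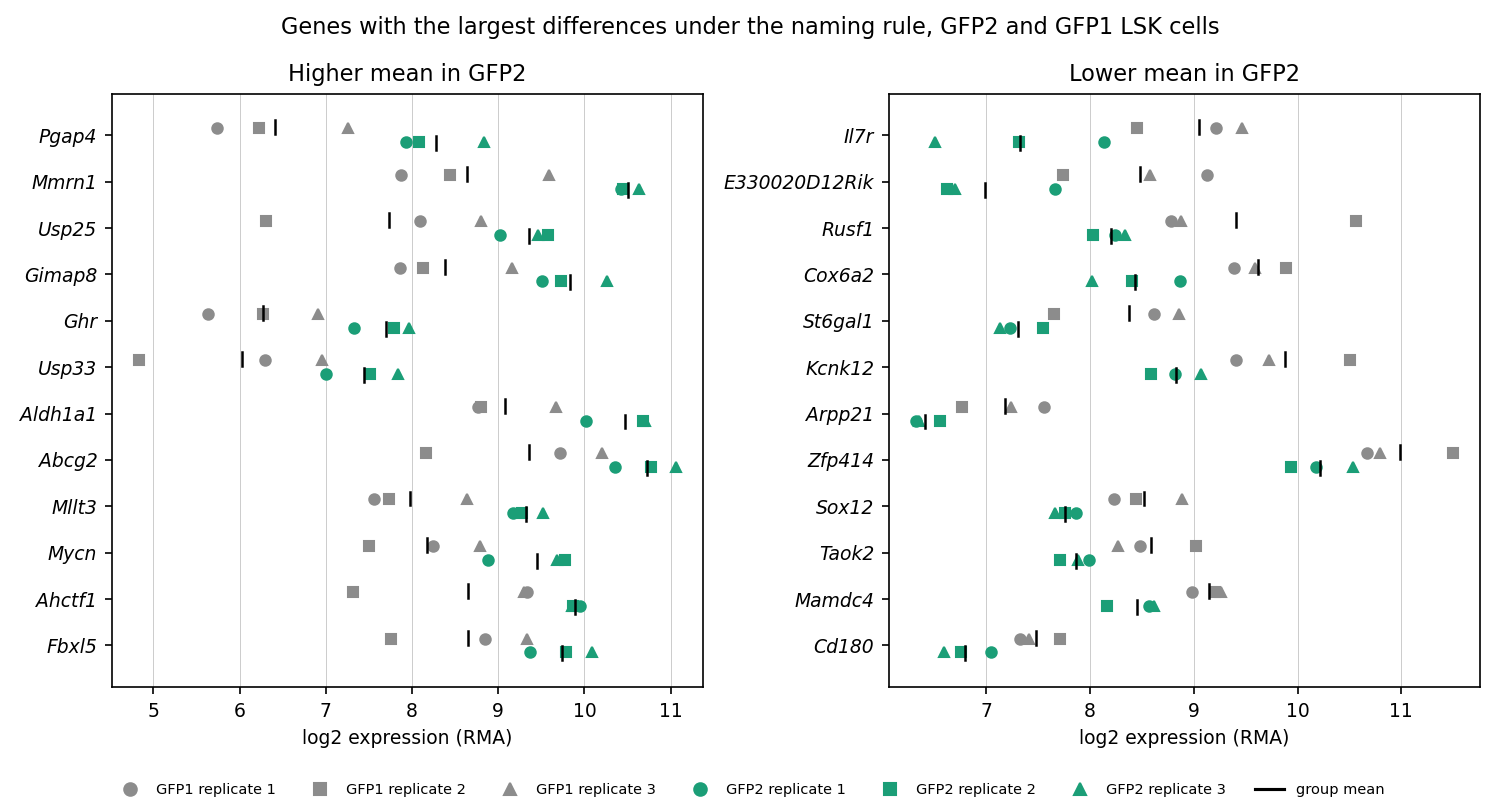
Log2 expression of the 24 genes of the naming rule in each array of GFP1 (grey) and GFP2 (green), with replicate numbers as symbols and group means as vertical lines. Of the 12 genes with the higher mean in GFP2, 6 had their lowest value in GFP1 replicate 2 and 6 in GFP1 replicate 1.

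Of the remaining genes on the higher side, 4 had smaller differences without GFP1 replicate 2, still at an unadjusted p under 0.05. Usp25 and Usp33, both deubiquitinases, differed by 1.62 and 1.42, and by 0.90 and 0.82 without that array. Ahctf1, a nucleoporin that seeds nuclear pores on chromatin, differed by 1.24 and without it by 0.58. Fbxl5, an iron-sensing ubiquitin ligase subunit, differed by 1.10 and without it by 0.66. The rule asked for arrays that did not overlap, so leaving out 1 array could not turn the direction of any of the 24 genes. They kept it under the other alternatives as well. With the mean over probe sets, 11 of the 12 higher and 10 of the 12 lower genes had an unadjusted p under 0.05. Without GFP1 replicate 2, 22 of the 24 had one, and Kcnk12 and Taok2 did not.

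Genes of lymphoid priming had mostly lower means in GFP2. Il7r, the interleukin 7 receptor that marks lymphoid-primed cells, read 9.22, 8.46 and 9.46 in GFP1 and 8.13, 7.32 and 6.51 in GFP2. Every GFP1 array lay above every GFP2 array, with a difference of -1.73 ± 0.41 (SE), and -2.02 without GFP1 replicate 2. Ccr9, a homing receptor of lymphoid progenitors, read 8.27, 8.25 and 9.30 in GFP1 and 7.40, 7.16 and 7.46 in GFP2, without overlap (-1.26 ± 0.55, SE). Under the alternative settings its smallest difference was -0.32, against -0.92 with single arrays left out. Rag2, a subunit of the recombinase of antigen receptor genes, read 7.68, 7.62 and 7.54 in GFP1 and 6.90, 7.22 and 6.63 in GFP2. It was lower in all 3 GFP2 arrays as well, by -0.70 ± 0.27 (SE) on average.

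Of 19 multipotent and lymphoid progenitor genes, 3 had the higher mean in GFP2, with a median of -0.24. At an unadjusted p under 0.05 there were 4 lower members, beside 1.10% of all genes, and 0 higher. They were Il7r, Ccr9, Rag2 and Irf8, and in 3 of them the arrays did not overlap (3.63% of all genes lay that way). The count was 3 lower without GFP1 replicate 2 and lay between 1 and 3 over the single arrays left out, with medians between -0.37 and -0.15. Flt3, the receptor that marks multipotent progenitors, differed by -0.09 ± 0.32 (SE), and Dntt, the terminal transferase, by -0.42 ± 0.48 (SE). Mef2c, a factor of lymphoid and myeloid choice, had the highest value of the list at 0.52.

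Other genes of lymphoid cells were among the 12 largest lower differences. St6gal1, a sialyltransferase of B cells, read 8.62, 7.65 and 8.86 in GFP1 and 7.22, 7.54 and 7.14 in GFP2. The nearest arrays were 0.11 apart (-1.08 ± 0.35, SE). Cd180, a toll-like receptor homolog of B cells, differed by -0.68 ± 0.20 (SE), and Arpp21, a phosphoprotein of early lymphocytes, by -0.78 ± 0.25 (SE). The others were E330020D12Rik (-1.49), Rusf1 (-1.21), Cox6a2 (-1.19), a subunit of cytochrome c oxidase, Kcnk12 (-1.06), a potassium channel, Zfp414 (-0.77), Sox12 (-0.76), a transcription factor, Taok2 (-0.73), a kinase, and Mamdc4 (-0.70). In Rusf1, Kcnk12, Zfp414 and Taok2 GFP1 replicate 2 stood highest, and without it they differed by -0.63, -0.74, -0.52 and -0.51. Under the alternative settings the smallest differences were -0.28 for Sox12 and -0.16 for Taok2, against -0.58 and -0.51 with single arrays left out.

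S1pr3, a receptor of sphingosine 1-phosphate, read 10.01, 9.64 and 9.43 in GFP1 and 8.72, 8.41 and 8.31 in GFP2. All GFP2 arrays were lower (-1.21 ± 0.54, SE). Under the alternative settings the smallest difference was -0.44, against -1.05 with single arrays left out. With Ccr9, S1pr3 made up the 2 lower members of 17 chemokine and S1P receptors, whose median was -0.21, beside 1.10% of all genes. Without GFP1 replicate 2 Ccr9 alone was lower. Ccr9 had no unadjusted p under 0.05 without GFP1 replicate 3, where it differed by -0.92, or without any single GFP2 array. S1pr3 kept one only without GFP1 replicate 3. Over single arrays left out, the list had between 0 and 2 lower members and between 0 and 1 higher.

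Immunoglobulin chains gave the lowest differences of the whole table. Jchain, which joins secreted IgA and IgM, read 11.72, 11.15 and 11.04 in GFP1 and 9.68, 9.10 and 5.88 in GFP2. No array overlapped, but GFP2 replicate 3 stood far below the other GFP2 arrays (-3.08 ± 1.09, SE). Without that array the difference was -1.91, not at an unadjusted p under 0.05, and neither Ighm nor Igha had one then or without GFP1 replicate 2. Ighm, the mu heavy chain, read 14.64, 14.42 and 14.14 in GFP1 and 13.43, 12.25 and 11.75 in GFP2 (-1.93 ± 0.80, SE). Igha, the alpha heavy chain, read 13.27, 13.02 and 11.30 in GFP1 and 10.22, 9.44 and 7.08 in GFP2 (-3.62 ± 1.43, SE), and Igkv8-30, a kappa variable segment, differed by -3.06 ± 0.74 (SE). Iglv1, a lambda variable segment, read 11.73, 10.39 and 7.20 in GFP1 and 6.70, 5.96 and 5.65 in GFP2, so that GFP1 replicate 3 lay nearer to GFP2 than to its own group (-3.67 ± 0.80, SE).

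The 5 lowest differences among all genes were those of Iglv1, Igha, Jchain, Igkv8-30 and a further kappa variable segment. Of 20 immunoglobulin chain genes, a set chosen after the values were seen, 19 had the lower mean in GFP2. At an unadjusted p under 0.05 there were 8 lower and 0 higher, beside 1.10% of all genes lower. Over single arrays left out the count ran from 2 lower, without GFP1 replicate 1, to 10, without GFP1 replicate 3, and it was 5 without GFP1 replicate 2, 5 without GFP2 replicate 2 and 3 without GFP2 replicate 3. The other members lay lower on the scale, and the median of all 20 was -0.38, against -2.33 for the 8 genes at or above the table median. Of the 20 probe sets, 6 end in _x_at or _s_at, the kinds that can read related sequences.

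Genes of antibody secretion gave mixed values. Mzb1, a chaperone of antibody assembly, read 9.58, 8.81 and 8.15 in GFP1 and 8.07, 7.59 and 7.54 in GFP2 (-1.11 ± 0.45, SE). Derl3 (-0.57) and Pou2af1 (-1.69), also active in plasma cells, had an unadjusted p under 0.05, so that with Jchain 4 of 9 plasma cell genes were lower, beside 1.10% of all genes. Mzb1 and Derl3 had no unadjusted p under 0.05 without GFP1 replicate 2, and none of the 4 had one without GFP2 replicate 3. Without GFP1 replicate 1, Jchain alone of the 4 kept one. Pou2af1 lay below the table median in both groups, averaging 5.75 in GFP1 and 4.06 in GFP2. Sdc1 (CD138), the surface marker of plasma cells, averaged 7.69 in GFP1 and 7.75 in GFP2, and Xbp1, the plasma cell transcription factor, 12.14 and 12.11. Of 12 B and plasma cell genes listed as markers of cells outside the gate, Jchain and Ighm were the 2 lower members at an unadjusted p under 0.05, and 0 were higher. The list mean was 8.57, 8.35 and 8.25 in GFP1 and 8.15, 7.76 and 7.30 in GFP2. In bulk RNA, fewer cells of a type and less RNA per cell cannot be told apart, and whether antibody transcripts came from cells carried through the sort was not tested.

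**Figure D3:**
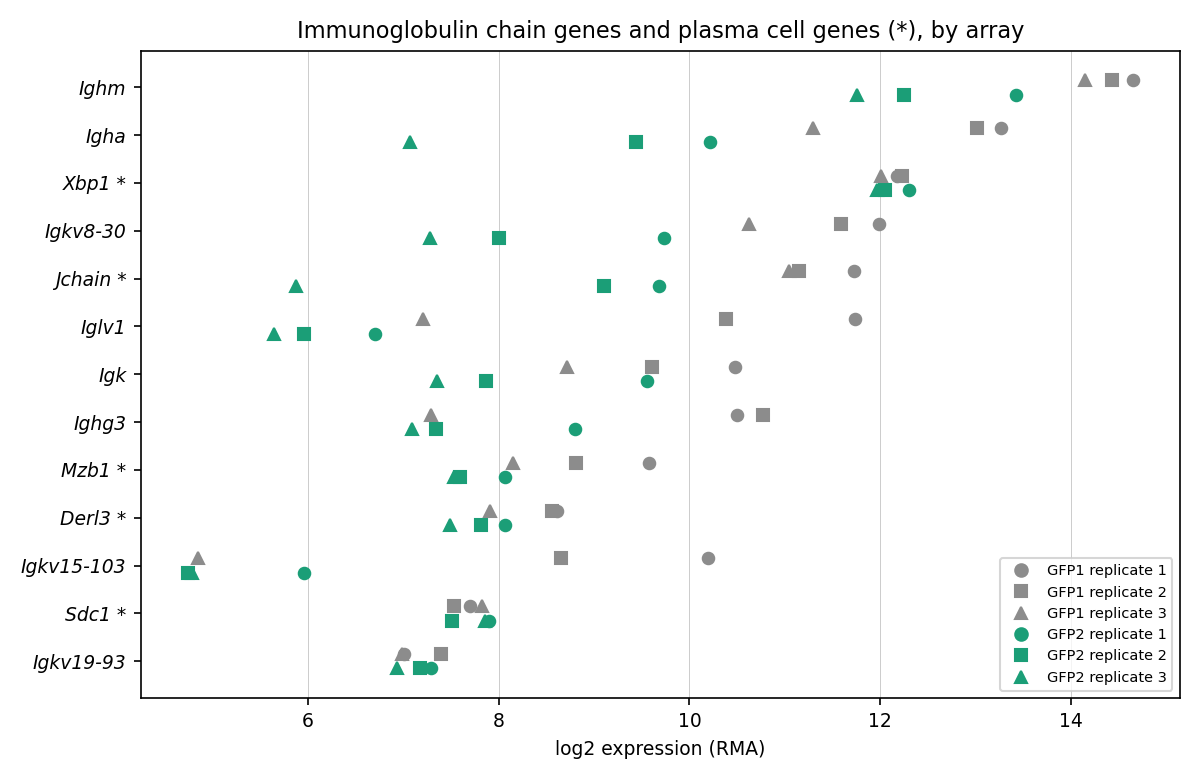
Log2 expression of immunoglobulin chain genes and of plasma cell genes (starred) whose brighter group mean reaches the table median, in each GFP1 (grey) and GFP2 (green) array. Ighm, Igha, Igkv8-30, Jchain and Iglv1 separate the groups, while Sdc1 and Xbp1 overlap, and GFP2 replicate 3 is at or near the lowest value of most chain genes.

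Levels of Ighm and Jchain did not follow GFP level from end to end. The mean of Ighm in GFP0 was 13.03 ± 0.28 (SD, n = 2), and it was 14.40 ± 0.25 (SD, n = 3) in GFP1, 12.48 ± 0.86 (SD, n = 3) in GFP2, 10.49 ± 0.13 (SD, n = 2) in GFP3 and 10.65 ± 1.87 (SD, n = 4) in GFP4. Jchain averaged 10.14 ± 0.20 (SD, n = 2), 11.30 ± 0.37 (SD, n = 3), 8.22 ± 2.05 (SD, n = 3), 6.59 ± 2.04 (SD, n = 2) and 7.64 ± 1.84 (SD, n = 4) in the same order. Both means were thus highest in GFP1, while that of Iglv1 was 9.83 in GFP0 and 9.77 in GFP1. In Jchain the GFP3 and GFP4 means lay within the range of the GFP2 arrays, whereas in Ighm every GFP2 array lay above both of those means.

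Myeloid progenitor genes had the lowest median of the 38 lists at -0.79, with the higher mean in GFP2 in 1 of 17 members. Only Spi1 (-0.63 ± 0.25, SE) and Irf8 (-1.42 ± 0.60, SE), both transcription factors of myeloid cells, had an unadjusted p under 0.05, beside 1.10% of all genes lower. Neither did without GFP1 replicate 2. Mpo, the myeloperoxidase of granule precursors, read 13.99, 14.06 and 11.37 in GFP1 and 13.83, 12.51 and 9.89 in GFP2. The arrays numbered 3 were the lowest of both groups by more than 2, and the difference was -1.06 ± 1.25 (SE). Csf1r, the receptor of the macrophage growth factor, read 12.33, 12.08 and 10.54 in GFP1 and 12.00, 9.73 and 8.58 in GFP2 (-1.55 ± 0.85, SE), and Elane, neutrophil elastase, differed by -1.45 ± 1.50 (SE). Elane differed by -0.063 without GFP2 replicate 3 and by -3.18 without GFP1 replicate 3.

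The mean over the myeloid list was 12.12, 11.63 and 10.13 in GFP1 and 11.69, 10.50 and 9.50 in GFP2. Leaving out single arrays moved its median difference between -1.59, without GFP2 replicate 1, and -0.06, without GFP2 replicate 3. Markers of mature neutrophils, monocytes and macrophages gave a list mean of 9.84, 8.99 and 7.72 in GFP1 and 9.37, 8.52 and 7.58 in GFP2. None of those 19 genes had an unadjusted p under 0.05, and their part in the myeloid values was not tested.

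Megakaryocyte and erythroid progenitor genes had a median of 0.07 over 21 members. Car2, a carbonic anhydrase, differed by 0.79 ± 0.28 (SE) and Ermap, an erythroid membrane protein, by -1.18 ± 0.53 (SE), both at an unadjusted p under 0.05 that neither kept without GFP1 replicate 2. They were the 1 higher and the 1 lower member at that threshold, beside 1.60% of all genes higher and 1.10% lower. Gata1 and Klf1, master regulators of the erythroid lineage, differed by -0.44 ± 0.40 and -1.20 ± 0.68 (SE), and Car1 by -1.98 ± 1.17 (SE), with GFP1 replicate 3 low among the GFP1 arrays (8.23, against 12.18 and 10.86). Cpa3, a mast cell carboxypeptidase, read 10.42, 10.11 and 8.61 in GFP1 and 8.92, 8.60 and 7.76 in GFP2 (-1.29 ± 0.76, SE). None of 14 mast cell and basophil genes had an unadjusted p under 0.05, beside 2.71% of all genes in either direction.

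Genes of the cell cycle gave small differences with wide errors. Of 27 S phase genes 13 had the higher mean in GFP2, the median was -0.00, and 0 had an unadjusted p under 0.05 either way. Of 31 G2 and M phase genes 24 had the higher mean with a median of 0.12, and again 0 had an unadjusted p under 0.05. That median was -0.02 without GFP1 replicate 2. Mki67, the proliferation antigen, read 12.15, 11.51 and 11.69 in GFP1 and 12.06, 11.92 and 11.80 in GFP2, within 1 range (0.14 ± 0.56, SE). Cdt1, which licenses replication origins, read 11.28, 11.09 and 10.90 in GFP1 and 11.10, 11.25 and 10.67 in GFP2 (-0.08 ± 0.24, SE).

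Pcna and Top2a, a replication clamp and a topoisomerase, had values of 0.73 ± 0.45 and 0.51 ± 0.48 (SE), but 0.19 and 0.04 without GFP1 replicate 2. At the step from GFP3 to GFP4, which shares no array with this one, the medians were -0.59 for S phase and -0.85 for G2 and M phase genes. Cdt1 differed by -1.68 there. The difference between both steps was 1.59 for Cdt1 (unadjusted p = 0.000545 in limma), which did not pass after adjustment.

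Among 25 G1 regulators and inhibitors of cyclin-dependent kinases the median was -0.04. Cdkn1c was the 1 member with a higher mean and an unadjusted p under 0.05, and Cdkn1a (p21), a p53 target, the 1 with a lower mean. Of all genes, 1.60% were higher and 1.10% lower at that threshold. Cdkn1c was not at it without GFP1 replicate 1 or without GFP2 replicate 3. Cdkn1a read 9.30, 9.10 and 8.61 in GFP1 and 8.39, 8.31 and 8.27 in GFP2. The GFP2 arrays were tight and below all GFP1 arrays (-0.68 ± 0.22, SE; -0.63 without GFP1 replicate 2). The 2 inhibitors thus lay on opposite sides. Cdk6, a kinase of the exit from quiescence, differed by -0.09 ± 0.22 (SE).

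In the other lists few members stood out, beside 1.60% of all genes higher and 1.10% lower at an unadjusted p under 0.05. Of the 38 lists, 13 had no member at an unadjusted p under 0.05, among them cytosolic ribosomal proteins, oxidative phosphorylation, glycolysis and hypoxia, Hox cluster genes, and autophagy and lysosome genes. Idi1 (1.05 ± 0.30, SE) and Scd2 (0.86 ± 0.31, SE), enzymes of isoprenoid and fatty acid synthesis, were higher of 20 cholesterol and fatty acid synthesis genes, but Scd2 differed by 0.50 without GFP1 replicate 2 and had no unadjusted p under 0.05 then. Idi1 read 8.93, 8.72 and 9.83 in GFP1 and 9.97, 10.44 and 10.23 in GFP2, without overlap. Ifit1 (0.80 ± 0.28, SE) and Rsad2 (0.82 ± 0.35, SE) were higher of 19 interferon response genes, but neither had an unadjusted p under 0.05 without GFP1 replicate 2.

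Bmpr2 (1.09 ± 0.46, SE), a BMP receptor, was higher and Tgfb1 (-0.65 ± 0.28, SE), the growth factor, lower of 24 TGF-beta and BMP pathway genes, also not without that array. In DNA repair Atm (0.56 ± 0.22, SE), a damage kinase, was higher and Fanca (-0.65 ± 0.20, SE), of the crosslink repair complex, lower of 22. Sesn1 (0.82 ± 0.37, SE) and Ccng1 (0.58 ± 0.27, SE), p53 targets, were higher while Cdkn1a was lower of 21 p53 pathway and Foxo genes. Without GFP1 replicate 2 Fanca and Cdkn1a kept an unadjusted p under 0.05, and Atm, Sesn1 and Ccng1 did not. Proteasome subunits had a median of 0.19 over 25 members, with Psma1 (0.72 ± 0.33, SE) the 1 higher member, and a median of -0.02 and 0 such members without GFP1 replicate 2.

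Of cells that the gate should leave out, dendritic cell genes had Itgax (CD11c, -0.58 ± 0.17, SE) and Irf8 lower of 12 at an unadjusted p under 0.05. Endothelial and stromal genes had Pdgfrb (-1.10 ± 0.50, SE) and Plvap (-0.53 ± 0.21, SE) lower of 18, beside 1.10% of all genes. Without GFP1 replicate 2 Itgax alone of these genes had an unadjusted p under 0.05. Itgax read 7.65, 7.45 and 7.46 in GFP1 and 7.04, 6.99 and 6.79 in GFP2, near the table median and without overlap. Klrd1, a receptor of natural killer cells, differed by -1.57 ± 0.76 (SE), the lowest of 13 T and NK cell genes, with 9.16 in GFP1 replicate 3 against 7.63 and 7.30 in the other GFP1 arrays.

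Whether genes that separate the ends of the scale also differed in its middle was described with genes chosen by their GFP4 minus GFP0 difference. That difference uses no GFP1 or GFP2 array, but the spread in the choice came from all 14 arrays. The choice therefore favoured genes of low spread, and the counts by unadjusted p below are not independent of it. Between GFP4 and GFP0, 306 of 18194 genes (1.68%) passed in limma after adjustment. Of the 228 genes higher in GFP4 (1.25%), 175 had the higher mean in GFP2 (76.8%), with a median GFP2 minus GFP1 difference of 0.23 (quartiles 0.01 and 0.57). At an unadjusted p under 0.05 there were 39 higher and 0 lower, and in 31 the arrays were apart with GFP2 above. Of the 78 genes lower in GFP4 (0.429%), 27 had the higher mean in GFP2 (34.6%), with a median of -0.15. At an unadjusted p under 0.05 there were 14 lower and 0 higher. Over all genes 46.5% had the higher mean in GFP2, and 1.60% were higher and 1.10% lower at that threshold. In 2.85% of all genes the arrays were apart with GFP2 above.

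Without GFP1 replicate 2 the unadjusted counts were 31 higher and 0 lower among the 228, with a median of 0.25. Among the 78 they were 9 lower and 0 higher, with a median of -0.22. Over all genes 0.797% were then at that threshold in either direction. Leaving out each array gave medians from 0.10 to 0.33 and from -0.23 to -0.01, and between 18 and 54 higher and between 6 and 12 lower members. The fewest higher members, 18, came without GFP2 replicate 3, where 7 of the 228 genes were lower, and without GFP1 replicate 3 1 of the 78 genes was higher. All 14 arrays enter the estimate of the spread. When only GFP0 and GFP4 arrays entered the choice of genes, an alternative added after seeing the data, 46 genes were higher in GFP4, of which 42 had the higher mean in GFP2 (median 0.68), and 12 were lower, of which 1 had the higher mean (median -0.23).

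The largest 10 differences at the ends, under the naming rule, ran from 0.14 to 1.49 in the middle for the genes higher in GFP4, all above 0, and 5 of them had an unadjusted p under 0.05. Gbp8, a guanylate binding protein, differed by 1.04 ± 0.30 (SE) and Fstl1, a secreted follistatin relative, by 1.07 ± 0.37 (SE), beside Procr, Mllt3 and Gimap8. Unc45b, a myosin chaperone (0.99 ± 0.55, SE), Pkp2, a desmosome protein (0.83 ± 0.48, SE), and Zfp612 (0.65 ± 0.52, SE) did not. For the 10 genes lower in GFP4 the differences ran from -1.73 to 0.44, 7 were below 0, and Il7r alone had an unadjusted p under 0.05. Bex6 differed by -0.55 ± 0.77 (SE), Vpreb1, the surrogate light chain, by -0.63 ± 0.64 (SE) and Hspa1a, a heat shock protein, by -0.03 ± 0.49 (SE).

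**Figure D4:**
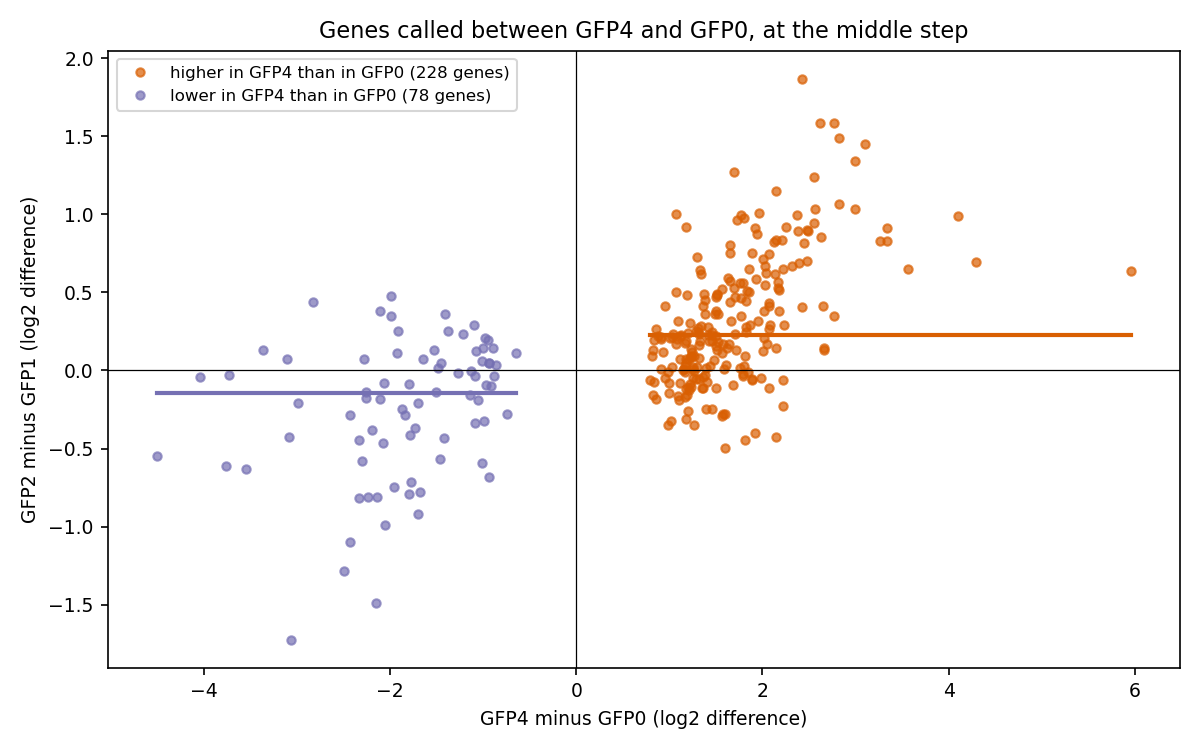
GFP2 minus GFP1 log2 difference (vertical) against the GFP4 minus GFP0 log2 difference (horizontal) for the 306 genes called between the ends, with horizontal lines at the medians of 0.23 and -0.15. No array is shared between the axes; most genes higher in GFP4 lie above 0, at sizes well below those on the horizontal axis.

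The median over the 228 genes of the level in each group was 8.46 in GFP1, 8.81 in GFP2 and 9.36 in GFP3, and over the 78 genes 8.77, 8.37 and 7.87. The difference of this step from that between GFP3 and GFP4 was tested gene by gene. It passed for 0 of 18194 genes (0.00%) in limma after adjustment (smallest adjusted p = 0.807), and 928 genes (5.10%) had an unadjusted p under 0.05. The 4 genes with the smallest p were Pgap4 (a difference between steps of 2.62), Il7r (-2.56), Sox12 (-1.54) and Cdt1. No gene was thus shown to differ at this step more than at the last one.

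Among reference genes Actb differed by 0.07 ± 0.15 (SE) and Gapdh by -0.24 ± 0.19 (SE), and Cd34 by 0.43 ± 0.36 (SE), or 0.01 without GFP1 replicate 2. Arrays were also simulated with independent values and, for each gene, the same spread in every array, taken from these data. There, 29% of genes changed by 1 on the log2 scale and 87% of genes changed by 2 were called in this comparison. The measured arrays were less even, with GFP1 replicate 2 apart, so these rates need not hold for them. In the simulation a difference of 1 was missed more often than found. The absence of calls does not show that GFP1 and GFP2 cells have the same expression.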

How the data were processed

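RNA from LSK cells sorted at 5 GFP levels was amplified, labelled with biotin and hybridised to 14 Affymetrix arrays, per the labels' protocols. Per the submitters' processing notes, the tools were affy, RMA and GCOS; their versions are not given. The deposited values are log2 expression per probe set (2.69 to 15.1). RMA normalizes quantiles, which fixes array totals, and no detection calls came with the table. Of 45101 probe sets, 34958 named 1 symbol in the platform annotation, and 34754 of these matched RefSeq (GRCm38.p6, names only); 10143 were left unnamed. Each gene was read through the probe set that was brightest on average across all 14 arrays. The genome build was not given in the sources used here.

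A group-means model was fitted to all 14 arrays in limma 3.58.1 (R 4.3.3) with eBayes, on 9 residual plus 3.99 prior degrees of freedom. Two-sided p-values were adjusted by Benjamini-Hochberg over 18194 genes, at a threshold of 0.05. An exact permutation test of 3 arrays against 3 could not go below 0.1 and was not used. The number of arrays limits the precision. Errors of differences are moderated standard errors. Lists were described by counts and medians without tests. Members, the 38 gene lists and the naming rule were chosen with earlier results of these data known. The rule named the 12 largest differences each way (unadjusted p under 0.01, arrays apart, brighter mean at or above the table median, probe set not ending in _x_at), up to 3 members per list by p, the 4 smallest p-values for the difference between steps, 27 genes by name and the 10 largest differences each way between GFP4 and GFP0 among the genes called there, under the same conditions. Further list members, immunoglobulin chains and plasma cell genes were named after their values were seen.

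The alternatives were other scaling, a filter on dim genes, other probe set rules, other variance models and array weights, fewer arrays, the replicate number as a block, RNA quality and interquartile range as covariates, and leaving out each array. The fit was tested on simulated arrays with 100 genes changed at each of 2 sizes, and without changed genes it made 0 calls. Figures were drawn with matplotlib 3.10.9.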

Additional observations from a re-analysis of the deposited data

How the results depend on the processing

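The count of 0 genes for GFP2 against GFP1 was 0 under each alternative that kept all 6 arrays, and with 1 array left out it lay between 0 and 3. Without GFP1 replicate 3 it was 3, namely Iglv1 (-4.95, adjusted p = 0.00129 in limma), a kappa variable segment (-4.26, adjusted p = 0.0042) and Mmrn1 (2.35, adjusted p = 0.0429). The count for the difference from the GFP3 to GFP4 step ran from 0 to 1, again Iglv1 without that array (-5.29, adjusted p = 0.0207). The 306 genes of GFP4 against GFP0 became 2 with array quality weights, 58 with those arrays alone, 67 with the replicate block and 142 with the 3 prime to 5 prime covariates; the cause was not tested.

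The 493 genes at an unadjusted p under 0.05 ran from 145 without GFP1 replicate 2 to 1400 without GFP1 replicate 3, and the share higher in GFP2 from 30.6% to 74.1%. Same-numbered arrays deviated together at r of 0.28, -0.03 and 0.58, and differently numbered ones at r from -0.63 to 0.25. The labels tie no array to an animal, and the numbers were not taken to pair the samples. Whether they do was not tested. With the replicate block 0 genes passed (587 at an unadjusted p under 0.05), and 0 on the 6 arrays alone (1036; smallest adjusted p = 0.0514), where 12 of the 17 myeloid progenitor genes were lower at an unadjusted p under 0.05.

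Small uncalled differences changed sign. With array quality weights Meg3 was -0.063 and Cdt1 0.068. With the 3 prime to 5 prime covariates Cdk6 was 0.025, Mki67 -0.034 and Hspa1a 0.25, and with the interquartile range Mki67 was -0.065. With cyclic loess Hspa1a was 0.0072 and Actb -0.051. Leaving out single arrays, ranges were -0.34 to 0.16 for Flt3, -0.19 to 0.73 for Hlf, -0.18 to 0.081 for Cdk6, -0.20 to 0.084 for Cdt1, -1.95 to 0.030 for Mpo, -0.27 to 0.14 for Hspa1a, -0.0023 to 0.12 for Actb.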
